A study of Mus musculus with 6 samples.

Results

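Myc, its partner and antagonist genes, and the genes of ribosome biogenesis were followed in mouse megakaryocyte-erythroid progenitors, the bone marrow cells that give rise to platelet-forming megakaryocytes and to red cells. The 36 genes were taken by symbol from a fixed list, out of 55487 genes in the count table. They fall into 7 roles: 6 genes of the MYC/MAX network, 5 nucleolar organisers, 3 proteins of box C/D and 4 of box H/ACA small nucleolar ribonucleoproteins, 5 genes of RNA polymerase I transcription, 6 of large-subunit assembly and 7 of small-subunit assembly. All 36 passed the filter on low counts and entered the test.

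The study sorted these progenitors from marrow and measured poly(A)-selected RNA in 3 control and 3 fasted libraries, to ask how a 6 h fast acts on the making of red cells. All mice were wild-type C57BL/6 animals aged 8 weeks, and the labels give the fast as the only difference between the groups. The labels do not say whether a library is 1 mouse or a pool, nor how the cells were gated, so the p-values measure only the spread between these libraries. In bulk RNA, fewer cells of a type and less RNA per cell cannot be told apart.

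MYC is a transcription factor that binds DNA together with MAX, mostly at the E-box, whereas the MXD proteins, MXI1 and MNT pair with MAX and repress. MYC is known to drive the genes that build ribosomes, from the copying of ribosomal DNA by RNA polymerase I through modification of the precursor RNA to the assembly of the subunits in the nucleolus. Red cell progenitors depend heavily on ribosome production, which is why inherited defects in it appear as anaemia, and MYC is known to decline as erythroid cells mature.

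The E-box CACGTG, which reads the same on both strands, was searched in RefSeq promoter windows of 300 bases on build GRCm38.p6, from 250 bases before to 50 bases after each start. Of the 36 genes, 30 had a window; Myc, Npm1, Fbl, Bop1, Rrs1 and Rrp12 are named only. The motif was in 8 of the 30 genes (26.7%), against 8.09% of all genes with a window and 12.6% of those with a window that were expressed above background. Of the other 93 ribosome biogenesis genes on a longer list, 81 had a window and 17 of these had the motif (21%). The share was thus not particular to the 36. By role, the motif was found in 3 of 5 network genes (Max, Mxd4 and Mnt), 2 of 4 large-subunit genes (Nop2 and Pes1), 2 of 6 small-subunit genes (Utp20 and Tsr1) and 1 of 5 polymerase I genes (Rrn3, with 2 matches), and in 0 windows of the nucleolar organisers or of either ribonucleoprotein group. Stretches are printed for Nop2 and Rrn3, which make ribosomes, and for Mnt and Mxd4, which oppose MYC, to show that the same letters stand upstream of genes with opposite roles. Each stretch lies upstream of the start, outside annotated exons, and is written 5′ to 3′ on the strand of its gene with the E-box in capitals.
Nop2: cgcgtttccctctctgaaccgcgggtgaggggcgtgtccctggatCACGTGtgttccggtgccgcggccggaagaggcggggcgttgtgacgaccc
Rrn3: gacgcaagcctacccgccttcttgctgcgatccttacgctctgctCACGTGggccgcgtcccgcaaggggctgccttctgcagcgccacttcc
Mnt: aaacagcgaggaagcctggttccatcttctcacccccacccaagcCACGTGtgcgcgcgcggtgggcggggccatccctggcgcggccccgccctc
Mxd4: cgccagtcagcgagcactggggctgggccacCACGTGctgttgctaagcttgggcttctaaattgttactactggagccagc
The Nop2 stretch is chr6:125131778-125131873 on the plus strand, with the E-box beginning 60 bases before the start. The Rrn3 stretch is chr16:13780606-13780698, plus strand, 48 bases before the start. The Mnt stretch is chr11:74830756-74830851, plus strand, 123 bases before the start. The Mxd4 stretch is chr5:34187879-34187960, minus strand, 219 bases before the start. A match describes these letters only, and no binding was measured.

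The libraries held 22445970 to 30246110 counts in the control group and 12797144 to 18225191 in the fasted group, so every fasted library was shallower. A background per base, read from 1437 olfactory and vomeronasal receptor genes that blood cells are not known to use, would make up 3.90% to 8.60% of the control and 11.5% to 14.6% of the fasted libraries if spread evenly over exons. Genes were therefore called expressed where they reached 5 times this background (10637 of 36508 tested genes), and libraries were scaled on those genes. Of the erythroid markers 11 of 13 had log2 fold changes above 0. With TMM factors from all tested genes, 12 of 13 were below 0, as were 8788 of 10637 expressed genes. Under the scaling used here, 17 of 18 granulocyte-monocyte markers were below 0, against 47.7% of expressed genes. By edgeR 0 erythroid, 1 of 7 tested megakaryocyte (Pf4) and 1 of 18 granulocyte-monocyte markers (Csf3r) were called lower. Of all tested genes 0.698% were called lower, and of expressed genes 2.36%. Called higher were 3 of 8 lymphoid and 5 of 6 stromal and endothelial markers, where 13.7% of all tested genes were called higher. All 5 of these stromal markers and 2 of the 3 lymphoid ones (Cd3e and Il7r) lay under the expression limit, where the median log2 fold change of tested genes was 1.03, and 0 markers were called where only expressed genes were tested. Summed erythroid markers ran from 4032 to 6917 counts per 1000000 scaled counts (CPM) in control and from 5491 to 8510 in fasted libraries. Granulocyte-monocyte markers summed to 3692 CPM in control 1, against 11935 and 17957 in the other controls, and to between 2057 and 4727 after the fast. Without control 1, all 18 were below 0 (46.8% of expressed genes) with a median of -1.04, and 8 were called lower (1.25% of expressed genes). Where only expressed genes were then tested, Cebpe had the lowest edgeR adjusted p of the 18, at 0.10. Megakaryocyte markers summed to 534 to 639 CPM in control and 319 to 562 in fasted libraries, lymphoid markers to 59.5 to 107 and 89.9 to 200, and stromal and endothelial markers to 97.7 to 118 and 126 to 161. A few genes carried some of these sums. In the control means, Car2 and Car1 held 2747 and 1489 of the 5867 erythroid CPM. Mpo held 6093 of the 11195 granulocyte-monocyte CPM, and Pecam1 73.1 of the 107 stromal and endothelial CPM. The stem and progenitor markers Kit, Gata2, Cd34 and Myb summed to 1085 to 1499 CPM in control and 820 to 1007 in fasted libraries. Of these, 0 of the 4 passed the test and all 4 had log2 fold changes below 0 (47.7% of expressed genes). No marker had 0 counts in any library. The part of these marker levels in the results was not tested.

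The 36 genes lay slightly lower in fasted libraries as a set, and almost none could be called gene by gene. Dkc1, the pseudouridine synthase of box H/ACA particles, was the 1 of 36 genes called lower at an edgeR adjusted p under 0.05, and 0 were called higher. Over all tested genes 0.698% were called lower and 13.7% higher, and over expressed genes 2.36% and 3.23%. Of the 36 log2 fold changes, 26 were below 0 (72.2%, against 47.7% of expressed genes), and their median was -0.15 (quartiles -0.29 and 0.02), against 0.02 for expressed genes (quartiles -0.19 and 0.32). Expressed genes were not matched to the 36 on level. The median level was 39.5 CPM per kilobase of exon for the 36, against 9.71 for expressed genes. The part of level in these shares was not tested. At an unadjusted p under 0.05, 4 genes were lower, namely Nop56, Dkc1, Rrn3 and Rrs1 (11.1%, against 8.6% of expressed genes). Mxd4 was the 1 higher, against 10.9% of expressed genes. It lay under the expression limit, where 12537 of 25871 tested genes were higher at an unadjusted p under 0.05. The median log2 fold change of the 36 stood 0.17 below that of expressed genes. It stood between 0.11 and 0.25 below over every scaling, tool and left-out library that was run. Where only the expressed genes were tested, 0 of 35 were called and the smallest edgeR adjusted p was 0.16 (Dkc1). This edgeR fit called 0 of all 10637 genes in either direction, 8.3% and 11.5% of them being lower and higher at an unadjusted p under 0.05. DESeq2 on the same genes also called 0 of 35 (smallest adjusted p = 0.086), though it called 1.65% of all of them lower and 3.06% higher.

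**Figure D1:**
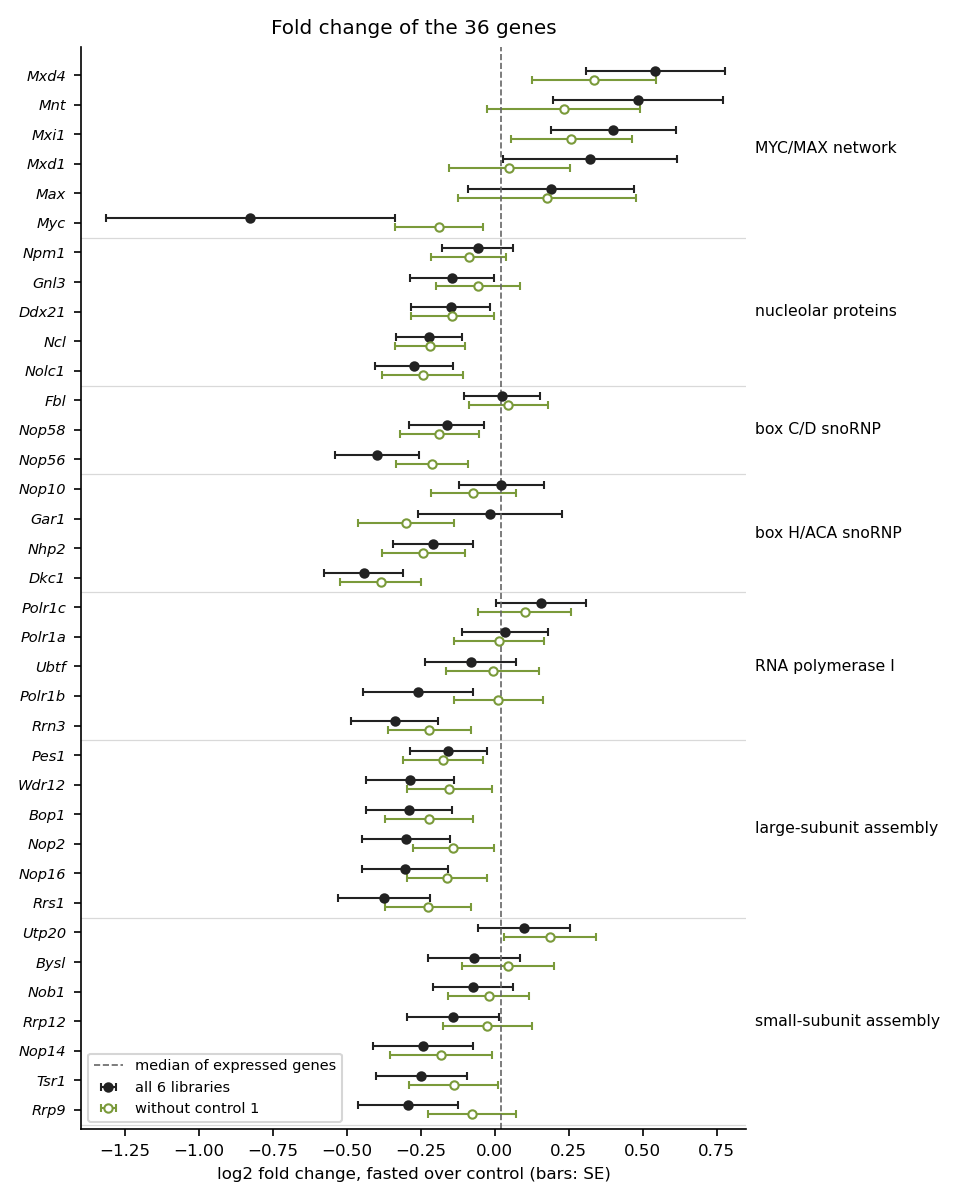
Log2 fold change, fasted against control, of the 36 genes by role (edgeR, with bars of 1 standard error). Filled points are from all 6 libraries (n = 3 and 3), and open points from the fit without control 1. The dashed line is the median of expressed genes. Among filled points, the network antagonists sit to the right of 0, up to 0.54 for Mxd4, and 25 of the 30 ribosome biogenesis genes to the left. With scaling on all tested genes, which is not drawn, 34 of the 36 were below 0.

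The set did not separate the groups cleanly, and 2 libraries stood at its ends. For each library, log2 CPM was centred on the gene's mean over the 6 libraries and averaged over the 30 ribosome biogenesis genes. For controls 1, 2 and 3 the average came to 0.18, 0.03 and 0.03. For fasted 1, 2 and 3 it came to -0.22, -0.07 and 0.04. Fasted 3 was thus at the level of control 2 and 3, and the groups overlapped. Control 1 was the highest of the 6 libraries for 18 of the 36 genes (against 26.4% of expressed genes), and fasted 1 was the lowest for 22 of 36 (15.2% of expressed genes). Control 1 was also the deepest library (30246110 counts, estimated background 3.90%). Fasted 1 was the shallowest (12797144 counts, estimated background 14.6%). The part of depth and background in these places was not tested. All 3 fasted libraries lay below all 3 controls for 11 of the 36 genes (30.6%, against 12.9% of expressed genes): Ncl, Nolc1, Nop56, Dkc1, Nhp2, Rrn3, Bop1, Pes1, Nop16, Rrs1 and Tsr1. They lay above all controls for 1 gene, Mxd4, against 14.4% of expressed genes. Mxd4 itself lay under the expression limit, where this held for 51.5% of tested genes. Without control 1, 25 of 36 genes were below 0 with a median of -0.11 (Polr1b and Bysl turned positive and Nop10 negative), 0 were called in either direction, and 1 was lower at an unadjusted p under 0.05 (Dkc1). Of expressed genes, 46.8% were then below 0, 1.25% were called lower and 0.951% higher.

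**Figure D2:**
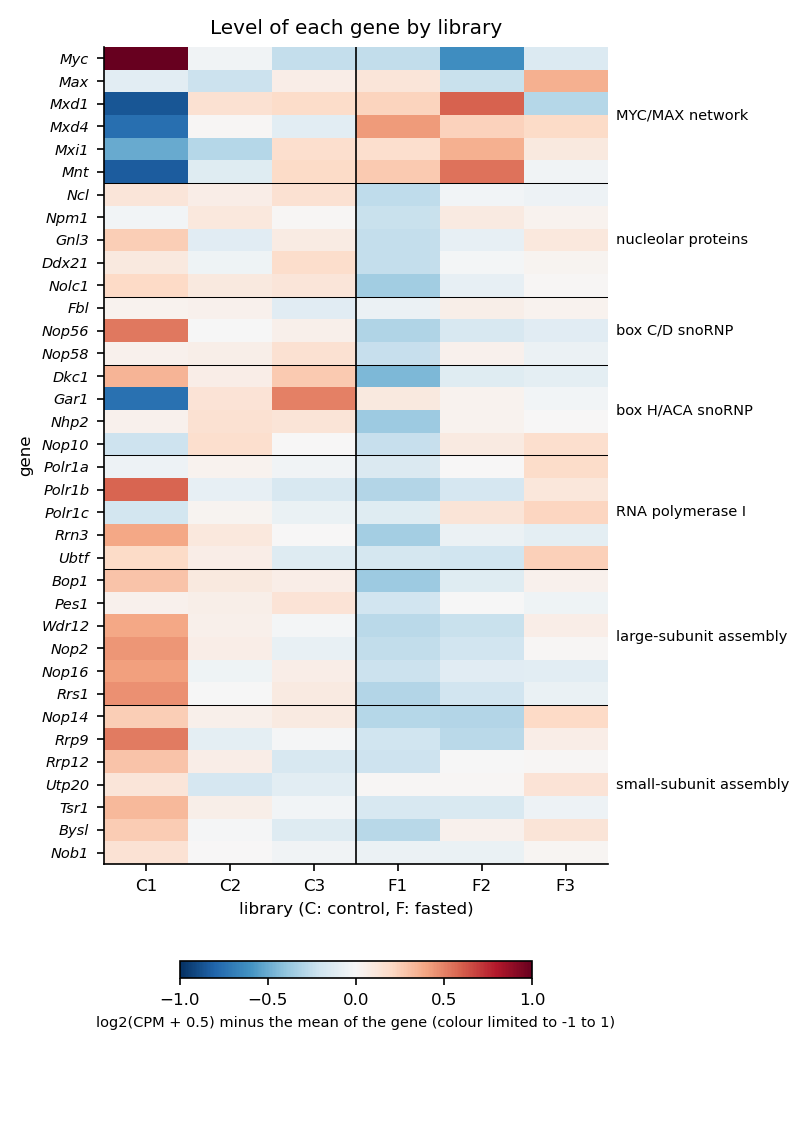
Log2 CPM of each of the 36 genes (rows, ordered by role) in each of the 6 libraries (columns), centred on the gene's mean. Fasted 1 is the lowest library for 22 genes, control 1 the highest for 18, and fasted 3 resembles control 2 and 3 in the ribosome biogenesis rows.

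In the MYC/MAX network, Myc had the lowest fold change of all 36 genes, a value that rested on 1 library. Myc (ENSMUSG00000022346.16, chr15:61985391-61990374, plus strand) had 925, 371 and 322 CPM in control libraries 1 to 3 and 321, 247 and 345 CPM in fasted libraries 1 to 3. Control 1 was 2.67 times the mean of the other controls, whereas fasted 1 and 3 lay beside control 2 and 3 and the groups overlapped. Its log2 fold change came to -0.83 (SE 0.49, edgeR adjusted p = 0.26), and without control 1 it was -0.19 (SE 0.15, edgeR adjusted p = 0.38). A difference in Myc was therefore not detectable beyond the spread between controls. Mycn, a related MYC-family gene that is not among the 36, showed the same library apart, with 51.5 CPM in control 1, 15.2 and 12.9 in control 2 and 3, and 14.1 to 18.6 in fasted libraries.

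Max, the shared dimerisation partner, had 11.2, 10.4 and 12.7 CPM in control and 13.2, 10.3 and 15.6 CPM in fasted libraries, and the groups overlapped. The log2 fold change of Max, 0.19 with an SE of 0.28, did not pass (edgeR adjusted p = 0.60). Max stood only just above the expression limit, at 5.06 times the background.

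The antagonists had positive fold changes, none of which passed the test. Mxd4, a MAX dimerisation protein that represses MYC targets, had 14.3, 24.6 and 22.6 CPM in control and 32.9, 28.6 and 27.9 CPM in fasted libraries. All its fasted libraries were above all controls, with a log2 fold change of 0.54 (SE 0.24, edgeR unadjusted p = 0.034, adjusted p = 0.10). It is the 1 gene of the 36 under the expression limit, at 4.23 times the background, and background would supply 19.7% of its control and 28.6% of its fasted counts.

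Mxd1, known as a MYC antagonist of differentiating blood cells, had 35, 70.8 and 72.5 CPM in control and 74.3, 96.0 and 52.1 CPM in fasted libraries. Control 1 was low and the groups otherwise overlapped (log2 fold change 0.32, SE 0.29, edgeR adjusted p = 0.41; 0.05 without control 1). Mxi1, which recruits the same corepressors, had 21.3, 24.8 and 34.1 CPM in control and 34.2, 38.9 and 32.6 CPM in fasted libraries. Control 3 reached the fasted range (log2 fold change 0.40, SE 0.21, edgeR adjusted p = 0.16). Mnt, the broadly expressed antagonist, had 9.35, 15.7 and 19.6 CPM in control and 20.6, 25.0 and 16.6 CPM in fasted libraries. Fasted 3 fell within the control range (log2 fold change 0.48, SE 0.29, edgeR adjusted p = 0.21).

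So 5 of the 6 network genes had fold changes above 0 under the scaling used here, but 4 of the 6 were below 0 with TMM factors from all tested genes. After subtraction of the background expected from gene length, the log2 ratios of the group means were 0.38 for Mxd4, 0.35 for Mnt, 0.28 for Mxi1, 0.26 for Mxd1 and -0.04 for Max, whereas the edgeR fit of subtracted counts gave Max 0.04. Control 1 was the lowest library for 4 of the 6 genes (26.8% of expressed genes) and the highest for Myc. Control 1 was also the control lowest in granulocyte-monocyte markers, whose part in these levels was not tested.

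**Figure D3:**
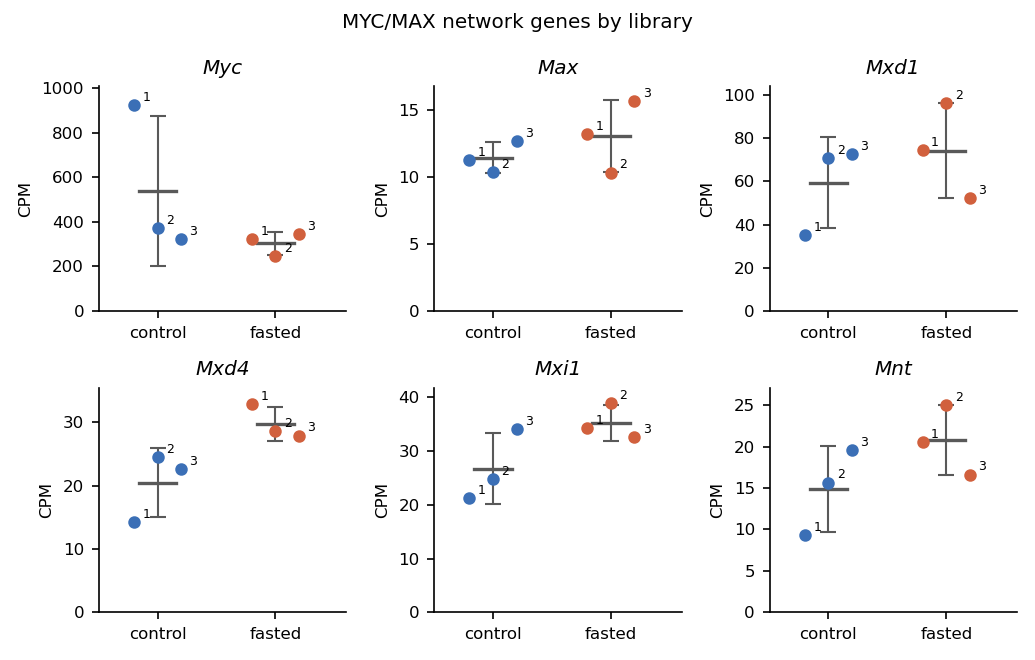
CPM of Myc, Max, Mxd1, Mxd4, Mxi1 and Mnt in each library (points, numbered by replicate), with the group mean and SD (bars, n = 3). Control 1 stands alone at 925 CPM for Myc and is the lowest library for Mxd1, Mxd4, Mxi1 and Mnt.

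The box H/ACA proteins form the particles that convert uridine to pseudouridine in ribosomal RNA. Dkc1 (ENSMUSG00000031403.14, chrX:75095854-75109777, plus strand), the gene mutated in dyskeratosis congenita, had 598, 494 and 567 CPM in control and 346, 434 and 440.4 CPM in fasted libraries. The groups did not overlap, with means of 553 ± 53.7 and 407 ± 52.7 CPM (SD, n = 3 each). Dkc1 was 26.5% lower in fasted libraries (log2 fold change -0.44, SE 0.13, edgeR adjusted p = 0.041). The call was lost without control 1 (-0.39, edgeR adjusted p = 0.087), without any of control 2, fasted 1, fasted 2 or fasted 3, and where only expressed genes were tested. Over the left-out libraries its log2 fold change stayed between -0.55 and -0.34 and its edgeR adjusted p between 0.047 and 0.15.

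The partners of dyskerin had smaller fold changes than Dkc1, a difference that was not tested. Without control 1, all 4 box H/ACA genes were below 0 (46.8% of expressed genes), with a median of -0.27. Nop10, the smallest protein of the particle, had 264, 343 and 305 CPM in control and 259.8, 324 and 342 CPM in fasted libraries, which overlapped fully (log2 fold change 0.02, SE 0.14, edgeR adjusted p = 0.91). Nhp2, the RNA-binding subunit, had a log2 fold change of -0.21 (SE 0.13, edgeR adjusted p = 0.24), with all 3 fasted libraries below the controls. Gar1, needed for the catalytic step, is added here for its spread, after its values were seen: it had 37.8, 70.2 and 90.5 CPM in control and 68.2, 65.5 and 62.5 CPM in fasted libraries. Control 1 was 0.47 times the mean of the other controls, so the log2 fold change of -0.02 (SE 0.24) became -0.30 without that library (edgeR adjusted p = 0.21). In Gar1, control 1 thus lay opposite to its place in most ribosome biogenesis genes.

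The box C/D proteins form the particles that methylate the sugar of ribosomal RNA. Nop56, a core scaffold protein, had 1015, 704 and 729 CPM in control and 574, 629.7 and 653 CPM in fasted libraries, with no overlap. Nop56 had a log2 fold change of -0.40 (SE 0.14, edgeR adjusted p = 0.059), which was -0.21 without control 1 (edgeR adjusted p = 0.23). Fbl, the methyltransferase fibrillarin, had 226, 227 and 204 CPM in control and 212, 229.5 and 226 CPM in fasted libraries. The Fbl groups overlapped fully (log2 fold change 0.02, SE 0.13, edgeR adjusted p = 0.89), so 2 proteins of the same particle differed in their values, a difference that was not tested. Nop58, the partner of Nop56, had -0.16 (SE 0.13, edgeR adjusted p = 0.32). Nop56 and Nop58 host small nucleolar RNA genes in their introns, and annotated exons of Nop56 share 70 to 100 bases with each of 4 of them.

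All 5 nucleolar organisers had fold changes below 0 (47.7% of expressed genes), and fasted 1 was the lowest library for each of the 5 (15.2% of expressed genes). Nolc1, a chaperone of small nucleolar ribonucleoproteins, had 358, 332 and 338 CPM in control and 245, 293 and 313 CPM in fasted libraries. Its groups did not overlap (log2 fold change -0.27, SE 0.13, edgeR adjusted p = 0.13). Ncl, the abundant nucleolar protein nucleolin, had 1468, 1408 and 1496 CPM in control and 1128, 1320.3 and 1297 CPM in fasted libraries. The Ncl groups were likewise apart, with a log2 fold change of -0.22 (SE 0.11, edgeR adjusted p = 0.14). Npm1, the histone chaperone nucleophosmin, had 900.1, 986 and 923 CPM in control and 785, 974 and 939 CPM in fasted libraries. Only fasted 1 of the Npm1 libraries lay outside the control range, and its log2 fold change came to -0.06 (SE 0.12, edgeR adjusted p = 0.71). Gnl3, the nucleolar GTPase nucleostemin, and Ddx21, an RNA helicase, each had log2 fold changes of -0.15 (SE 0.14 and 0.13, edgeR adjusted p = 0.43 and 0.39).

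RNA polymerase I copies the ribosomal DNA. Rrn3, the initiation factor that brings the polymerase to the promoter and is known to respond to growth signals, had 245, 201 and 187 CPM in control and 147, 179 and 174 CPM in fasted libraries. The Rrn3 groups did not overlap (log2 fold change -0.34, SE 0.15, edgeR unadjusted p = 0.032, adjusted p = 0.098). Polr1c, a subunit shared with RNA polymerase III, had 77.7, 90.2 and 84.2 CPM in control and 81.3, 96.9 and 103 CPM in fasted libraries. It overlapped between groups (log2 fold change 0.16, SE 0.15, edgeR adjusted p = 0.43) and was below 0, at -0.36, with TMM factors from all tested genes. Polr1b, the second largest subunit, is added after its values were seen, with 235, 148 and 139.8 CPM in control and 128, 139 and 169 CPM in fasted libraries. Its log2 fold change of -0.26 (SE 0.19, edgeR adjusted p = 0.28) became 0.01 without control 1. Polr1a, the largest subunit, had 0.03 and Ubtf, which keeps ribosomal DNA open, -0.08, with SEs of 0.15 each and edgeR adjusted p-values of 0.86 and 0.68.

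**Figure D4:**
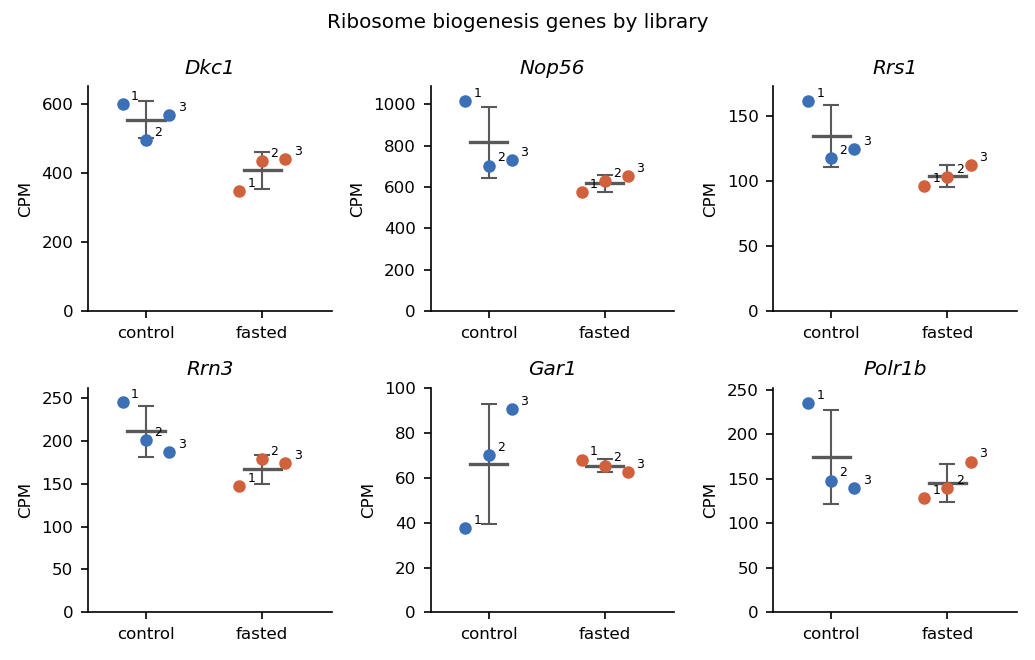
CPM of Dkc1, Nop56, Rrs1, Rrn3, Gar1 and Polr1b in each library (points, numbered by replicate), with the group mean and SD (bars, n = 3). The groups are apart for Dkc1, Nop56, Rrs1 and Rrn3, while Gar1 and Polr1b overlap and control 1 stands apart from control 2 and 3, at 37.8 and 235 CPM.

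All 6 large-subunit assembly genes had fold changes below 0 (47.7% of expressed genes), with a median of -0.30. Of the 6, 0 were called, and 4 had all fasted libraries below all controls (12.9% of expressed genes). Rrs1, which brings 5S ribosomal RNA into the precursor, had 162, 117 and 125 CPM in control and 96.0, 103 and 112 CPM in fasted libraries (log2 fold change -0.38, SE 0.16, edgeR adjusted p = 0.089). Nop16, a nucleolar protein and known MYC target, had 252, 184 and 199 CPM in control and 163, 175 and 176 CPM in fasted libraries (log2 fold change -0.30, SE 0.14, edgeR adjusted p = 0.13). In Rrs1 and Nop16 alike, the groups were apart and control 1 was the highest library.

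Bop1, Pes1 and Wdr12 encode the 3 subunits of the PeBoW complex, which is needed to process the RNA of the large subunit. Bop1 had 193, 169.6 and 166 CPM in control and 123, 146 and 163 CPM in fasted libraries, with groups apart by a small margin (log2 fold change -0.29, SE 0.15, edgeR adjusted p = 0.14). Pes1 had 204, 206 and 217 CPM in control and 174, 198 and 192 CPM in fasted libraries, also apart (log2 fold change -0.16, SE 0.13, edgeR adjusted p = 0.35). Wdr12 had -0.29 (SE 0.15, edgeR adjusted p = 0.15), with overlapping groups. Nop2, which methylates a cytosine of the large-subunit RNA, had 325, 251 and 227 CPM in control and 202, 209 and 241 CPM in fasted libraries. Fasted 3 lay within the Nop2 control range (log2 fold change -0.30, SE 0.15, edgeR adjusted p = 0.14; -0.14 without control 1). Without control 1 the median of the 6 genes was -0.17.

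The 7 small-subunit assembly genes had a median of -0.14, which was -0.03 without control 1; 0 were called and 6 were below 0. Rrp9, a protein of the U3 particle, had 228, 149 and 158 CPM in control and 138, 132 and 166 CPM in fasted libraries. Control 1 stood apart and the other libraries overlapped (log2 fold change -0.29, SE 0.17, edgeR adjusted p = 0.19; -0.08 without control 1). Utp20, a scaffold of the early precursor, had 74.3, 61.0 and 63.5 CPM in control and 68.8, 69.0 and 75.2 CPM in fasted libraries. Its log2 fold change of 0.10 (SE 0.15, edgeR adjusted p = 0.62) was -0.43 with TMM factors from all tested genes.

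Tsr1, a late assembly factor, had -0.25 (SE 0.15, edgeR adjusted p = 0.22), and 32.3% of its exon bases overlap Srr on the opposite strand, whose reads cannot be told apart from its own unless counting used the strand. Nop14, an early scaffold, had -0.24 (SE 0.17, edgeR adjusted p = 0.27), and Rrp12, which helps export the precursor, -0.14 (SE 0.15, edgeR adjusted p = 0.48). Bysl, a partner in late processing that shares 9.37% of its exon bases with Ccnd3 on the opposite strand, had -0.07 (SE 0.16, edgeR adjusted p = 0.73). Nob1, the nuclease that makes the final cut of the small-subunit RNA, also had -0.07 (SE 0.13, edgeR adjusted p = 0.68). In all, 16 of the 36 genes share exon bases with another annotated gene.

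Levels were compared between genes as CPM per kilobase of exon, averaged over the group. Npm1 was the most abundant of the 36 at 351 ± 16.7 in control and 337 ± 37.8 in fasted libraries (SD, n = 3 each). Nhp2 followed at 314 ± 12 and 272 ± 40.0, and Nop10 at 274 ± 35.4 and 278 ± 39.0; these neighbours overlap within their spread in fasted libraries. Nop56 stood at 199 ± 42.2 and 151 ± 9.94, Myc at 198 ± 123 and 112 ± 18.8, and Dkc1 at 134 ± 13 and 98.7 ± 12.8. The lowest ribosome biogenesis genes were Utp20 (6.5 ± 0.69 and 6.96 ± 0.35) and Polr1a (9.04 ± 0.29 and 9.25 ± 1.0). Myc's partner and antagonists were low, from 2.41 ± 0.65 for Mxd4 to 8.40 ± 3.00 for Mxd1 in control, so that Myc was far more abundant per length than any of them in each group.

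A longer list of 93 other ribosome biogenesis genes, all expressed, had much the same spread of fold changes. Of these, 3 were called lower and 0 higher, the 3 being Wdr43 and Ddx56 (log2 fold changes -0.48 and -0.42, edgeR adjusted p = 0.039 and 0.047), which act in small- and large-subunit processing, and Rsl24d1 (-0.49, edgeR adjusted p = 0.045), a placeholder on the immature large subunit. Of expressed genes, 2.36% were called lower and 3.23% higher. At an unadjusted p under 0.05, 10 of the 93 were lower (10.8%, against 8.6% of expressed genes) and 1 was higher (10.9% of expressed genes). The list's median was -0.15 and 73 of 93 lay below 0 (78.5%, against 47.7% of expressed genes). Its median level was 23.7 CPM per kilobase of exon, against 9.71 for expressed genes, which were not matched on level. All fasted libraries lay below all controls for 20 of the 93 (21.5%, against 12.9% of expressed genes). Its 39 small-subunit and 45 large-subunit genes had 32 and 37 below 0, and its 9 polymerase I genes had 4 below 0. The 3 calls were lost where only expressed genes were tested and without any of control 1, control 2, fasted 1, fasted 2 or fasted 3, and that of Ddx56 also without control 3 (edgeR adjusted p = 0.053). The list's median was -0.07 without control 1. Among polymerase I genes on this list, 0 were called; Taf1c, a subunit of the promoter selectivity factor, had the smallest p among positive fold changes (0.59, SE 0.24, edgeR adjusted p = 0.084), followed by Taf1d (0.14, adjusted p = 0.48), and Polr1e (-0.30, adjusted p = 0.20) and Taf1b (-0.24, adjusted p = 0.29) among negative ones.

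A list of 16 known MYC targets outside ribosome assembly had a median of -0.28 and 14 below 0 (87.5%, against 47.7% of expressed genes). These targets had a median level of 103 CPM per kilobase of exon, against 9.71 for expressed genes, which were not matched on level. All fasted libraries lay below all controls for 10 of the 16 (62.5%, against 12.9% of expressed genes). At an unadjusted p under 0.05, 8 were lower (50%, against 8.6% of expressed genes). Of expressed genes, 2.36% were called lower. Ppat, the entry enzyme of purine synthesis, was the 1 called (-0.46, SE 0.15, edgeR adjusted p = 0.048), with 253, 207 and 192 CPM in control and 140.1, 151 and 181 CPM in fasted libraries, and 0 were called higher. Without control 1 the list's median was -0.22, 15 of 16 were below 0 and 0 were called. The call of Ppat was lost without any library but control 3, with edgeR adjusted p from 0.028 to 0.16. Among 7 further genes of the MAX network, Mlxipl, the carbohydrate-response factor ChREBP, was called higher, from 2.45, 3.86 and 2.84 CPM in control to 7.99, 8.25 and 12 CPM in fasted libraries (log2 fold change 1.63, SE 0.36, edgeR adjusted p = 0.029). At 1.48 times the background it lay among tested genes that were not expressed above it, whose median log2 fold change was 1.03. Of those genes, 4646 of 25871 were called higher, as were 13.7% of all tested genes. The call of Mlxipl was lost without control 2, fasted 1 or fasted 3 (edgeR adjusted p = 0.11, 0.078 and 0.14). None of the other 6 was called, Mlx, the partner of ChREBP, having -0.44 (SE 0.18, edgeR adjusted p = 0.079).

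**Figure D5:**
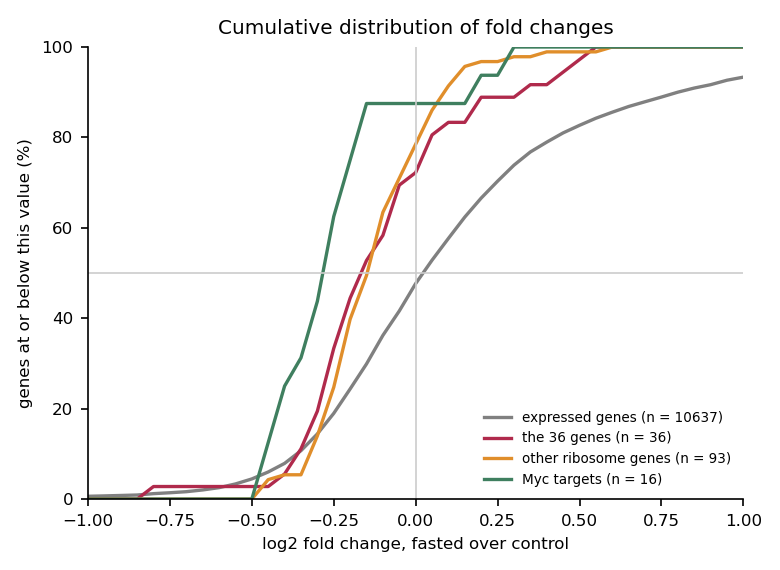
Cumulative share of genes (y, percent) at or below each log2 fold change (x), for the 36 genes, 93 other ribosome biogenesis genes, 16 MYC targets and 10637 expressed genes. At 0 the curves stand at 72.2%, 78.5%, 87.5% and 47.7%.

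The size of the set's median depended on how libraries were scaled, from -0.87 to -0.08 over all settings, while its distance below expressed genes was 0.17 or 0.18 under the scalings of all counts and 0.11 to 0.25 over all settings. TMM factors from all tested genes, most of which are at background level, put the median of expressed genes at -0.50 and that of the 36 at -0.68, and RLE factors put them at -0.69 and -0.87. Relative to expressed genes the 36 were then 0.18 lower in each case. With TMM from all genes 10 of the 36 were called lower, but so were 12.9% of expressed genes, with 0.0752% called higher. In a fit of background-subtracted counts, which holds 35 of the genes and not Mxd4, their median was -0.09 against 0.02, a gap of 0.11. The standard error of a log2 fold change had a median of 0.15 for the 36 genes, about the size of the shift itself, so a difference of that size in a given gene was not detectable with 3 libraries a group.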

How the data were processed

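The authors deposited 1 table of raw read counts per gene, and the submitters' processing notes name HISAT2 2.2.1, featureCounts 2.0.1 and GRCm38; strand setting and filters are not given in the sources used here. Gene identifiers were matched to GENCODE M21 for symbols, exon lengths and coordinates: 54435 of 55487 matched with version and 55227 without, as did 35 and all 36 of the genes reported. No row named no gene.

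Counts were tested with edgeR 4.0.16 (R 4.3.3): filterByExpr kept 36508 genes, TMM factors came from expressed genes (10637, defined as 5 or more times the background), and robust quasi-likelihood tests with group as the only term were adjusted over all tested genes by Benjamini-Hochberg. CPM use these factors, with 0.5 added before centred log2 values. Standard errors (SE) of edgeR fits were back-calculated, as the absolute log2 fold change over the square root of the quasi-likelihood F statistic. In simulated counts for fasted against control, 185 of 200 genes changed 4-fold were recovered, with 6 false calls over 36508 genes. The simulation changed expressed genes only, gave all genes the same spread setting and held no background difference between groups. Its rates therefore do not carry over to the smaller shifts reported here. DESeq2 1.42.0 and limma 3.58.1 (voom) served as alternatives, among 18 planned; 9 that test expressed genes only were added after seeing the data. Fits that leave an arm with 2 libraries pool the spread over both arms. Coordinates are 1-based. Figures used matplotlib 3.10.9.

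The 36 genes and all lists were chosen with earlier results of these data known. Values are given by library for the MYC/MAX network, genes called, the 10 smallest p-values and the highest and lowest fold change of each role. Of the other lists, called genes with the smallest p are named, or where none is called, the smallest p in each direction.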

Additional observations from a re-analysis of the deposited data

How the results depend on the processing

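The call of Dkc1 and the counts over all genes depended on scaling and on single libraries. Over all tested genes, 4990 were called higher and 255 lower. These became 420 and 1393 with TMM factors from all tested genes, 301 and 2672 with RLE factors, 481 and 4820 with DESeq2, 0 and 0 with only expressed genes tested (with or without background subtraction), 11462 and 726 at an adjusted p under 0.10, and 0 to 8883 and 0 to 384 with each library left out. Leaving out control 2, fasted 1 or fasted 3 took the higher calls to 3, 3 and 0 and the lower calls to 6, 7 and 0.

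Of the 36 genes, the 1 called lower became 10 with TMM factors from all genes, 14 with RLE factors, 27 with DESeq2 on its own size factors, 2 with no filter on low counts, 4 at an adjusted p under 0.10, and 0 without robust settings, with only expressed genes tested (edgeR, background-subtracted edgeR, DESeq2 or limma-voom), and 0 to 2 with each library left out (0 in each such fit of expressed genes). None was called higher in any of these. Of the other 93 ribosome biogenesis genes, the 3 called lower became 21, 43 and 75 with those 3 scalings, 1 with factors from genes at 10 times the background, 0 with only expressed genes tested or without robust settings, 7 at an adjusted p under 0.10 (where 1 was higher), and 0 to 4 with a library left out. The median of the 36 moved from -0.15 to -0.68, -0.87 and -0.87 with TMM, RLE and DESeq2 over all genes, and ranged from -0.24 to -0.09 with a library left out; that of the 93 moved to -0.68, -0.87 and -0.87.

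The labels name no pairing by replicate number, and deviations of same-numbered libraries correlated at -0.17, 0.14 and -0.34. Those of differently numbered libraries correlated at -0.17 to 0.31. With 3 libraries a group, these values cannot decide whether the numbers pair the libraries. With a replicate block, 4389 genes were called higher and 118 lower, 0 of the 36 were called (smallest edgeR adjusted p 0.069; 0 also with only expressed genes tested), 0 of the 93 were called, and Gar1 turned to 0.07.

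Signs turned for the following genes. With TMM factors from all genes, log2 fold changes became -0.34 for Max, -0.13 for Mxd1, -0.081 for Mxi1, -0.50 for Fbl, -0.49 for Nop10, -0.49 for Polr1a, -0.36 for Polr1c and -0.43 for Utp20. With RLE factors, and alike with DESeq2, they became -0.54 for Max, -0.29 for Mxd1, -0.13 for Mxd4, -0.26 for Mxi1, -0.14 for Mnt, -0.69 for Fbl, -0.68 for Nop10, -0.68 for Polr1a, -0.55 for Polr1c, -0.63 for Utp20 and -0.18 for Taf1c. With factors from genes at 10 times the background, Npm1 became 0.018, Gar1 0.055, Bysl 0.0095 and Nob1 0.0059; in the fit of background-subtracted counts, Npm1 0.019 and Gar1 0.038 (as ratios of subtracted group means, Max, Polr1a and Utp20 turned instead, to -0.04, -0.05 and -0.01); with library totals, Fbl -0.0068 and Nop10 -0.0075; with limma-voom, Gar1 0.11. With libraries left out, 29 of the 36 kept their sign; the ranges of the others were -0.16 to 0.027 for Npm1, -0.0498 to 0.0547 for Fbl, -0.30 to 0.26 for Gar1, -0.073 to 0.13 for Nop10, -0.056 to 0.11 for Polr1a, -0.43 to 0.012 for Polr1b and -0.18 to 0.044 for Bysl, and Mycn ranged from -1.10 to 0.17, the latter without control 1. The causes were not tested, beyond the fewer genes or libraries an alternative holds by construction. Depth was lowest for low network genes such as Max, with 170 to 353 counts a library, 15.1% of them background in control and 28.3% in fasted libraries.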
